A study of Mus musculus with 10 samples.

Results

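Matrix metalloproteinases are zinc-dependent enzymes that cut the proteins around cells, and tissue inhibitors of metalloproteinases (TIMPs) block them. Here 10 mouse genes of this system were taken by name from the 54752 genes in each file: the proteases Mmp2, Mmp3, Mmp9, Mmp11 and Mmp14, the inhibitors Timp1, Timp2 and Timp3, and the secreted proteases Adamts1 and Adamts5. The cells were primary mouse embryonic fibroblasts from E13.5 embryos, at passage 2. Their fathers carried an Oct4-GFP allele on a CBA/CaJ × C57BL/6J background, and their mothers were 129S4/SvJaeJ. Every group had been infected for 48 hours with retroviruses carrying Jdp2, Glis1, Esrrb and Sall4, and the groups were 0, 1, 3, 5 and 7 days in a medium called iCD3 (D0, D1, D3, D5 and D7), with 2 libraries of mRNA each. D0 was therefore already infected, and uninfected fibroblasts or cells with an empty virus are not analysed here. The series title gives the induction of pluripotent stem cells as the purpose.

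Fibroblasts are a main source of these enzymes. Most metalloproteinases are made as inactive precursors and are switched on by other proteases. Mmp14 sits in the plasma membrane, cuts collagen there and activates the precursor of Mmp2, with a Timp2 molecule bridging the pair. Timp1 and Timp2 act in solution, while Timp3 binds to the matrix and also blocks ADAMTS enzymes. AP-1, a dimer of Fos and Jun proteins that Jdp2 can join and repress, is a known regulator of several of these genes.

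Depth was 2176457 to 4335931 estimated counts for replicate 1 and 1329377 to 1492105 for replicate 2, so 3 counts stood for 0.692 to 2.26 CPM (counts relative to library size, scaled by edgeR's TMM). Fragment length was not measured but inferred from the deposited effective gene lengths, as a median over long genes. It was 136 to 159 bases for replicate 1 and 199 to 204 for replicate 2. The series text speaks of independent experiments without naming cultures. The p-values therefore reflect only the spread between libraries, part of which may be technical. Counting intervals and floors cover counting error only. The fibroblast label was checked against 12 markers, whose summed level was 13360 to 15580 CPM at D0 and 971 to 1451 CPM at D7. Most of the D0 sum came from Col1a1, Col1a2, Vim and Fbln2, at means of 4732, 3860, 2366 and 1957 CPM. Col1a1 and Col1a2 are also among the substrates listed below. Dcn and Lum, usual fibroblast markers, were low at D0, at 9.87 ± 1.26 and 3.91 ± 5.54 CPM (SD, n = 2). Of the 12 markers 8 were called lower at D7 (9 in a fit with replicate as a block). Twist1, Pdgfra and Lum were called in neither fit. The 10 pluripotency markers were all called higher. All of them except Sox2 averaged 0 to 1.87 CPM at D0. Those had enough counts to be tested only through later libraries, which left little room for a call lower. In bulk RNA, fewer cells of a type and less RNA per cell cannot be told apart, and the part of this change in the results below was not tested.

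The stretch before the start of transcription was available for 7 of the 10 genes, from RefSeq on GRCm38.p6 (Mmp3, Mmp11, Mmp14, Timp1, Timp2, Timp3 and Adamts1). The windows ran from 250 bases before to 50 bases after the start. The AP-1 element TGANTCA, which reads the same on both strands, was found in 1 of the 7, that of Mmp3, and in 7.81% of the 32851 windows of all genes. The other motifs were added after the expression values had been seen. GGGCGG, the GC box, was searched on both strands as GGGCGG or CCGCCC and lay in 6 of 7, all except Mmp3, against 35.7% of all windows. TATAAA, on both strands, lay in 2 of 7, Mmp3 and Adamts1, against 13.6%. The last 100 bases before the RefSeq start are shown for 4 of the 7 genes. Motif letters are in capitals, 5′ to 3′ on the gene's strand (Mmp3 at chr9:7445722-7445821, plus strand, Mmp14 at chr14:54431498-54431597, plus, Timp1 at chrX:20870066-20870165, plus, and Adamts1 at chr16:85803114-85803213, minus).
Mmp3: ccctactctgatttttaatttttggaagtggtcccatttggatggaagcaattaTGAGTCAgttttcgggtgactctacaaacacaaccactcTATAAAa
Mmp14: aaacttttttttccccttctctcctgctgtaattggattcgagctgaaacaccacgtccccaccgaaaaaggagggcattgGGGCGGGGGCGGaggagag
Timp1: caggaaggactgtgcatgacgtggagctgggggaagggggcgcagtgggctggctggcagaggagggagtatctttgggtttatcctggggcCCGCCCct
Adamts1: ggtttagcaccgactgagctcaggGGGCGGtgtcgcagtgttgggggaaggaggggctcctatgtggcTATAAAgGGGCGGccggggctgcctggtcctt
In the Mmp3 stretch the AP-1 element began 46 bases before the RefSeq start, and no AP-1 element was found in the windows of the other 6 genes. These matches describe letters in the window and not binding.

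The inhibitors and the ADAMTS proteases were each higher before the medium than on any later day. Mmp14 at D3 still overlapped its own D0 values and was lower later. From D0 to D7, 7 of the 10 genes were called lower and 0 higher by edgeR's quasi-likelihood test at a Benjamini-Hochberg adjusted p under 0.05: Mmp9, Mmp14, Timp1, Timp2, Timp3, Adamts1 and Adamts5. Among the 12752 genes tested 17.9% were called for this comparison, 8.71% lower and 9.15% higher. In 9 of the 10 genes both D7 libraries lay below both D0 libraries, as in 30.4% of all genes, and in Mmp3 both lay above, as in 34% of all genes. The median log2 change of the 10 was -2.80, against 0.06 over all genes tested. All 10 passed the filter on low counts, but Mmp3 passed only through libraries of D1 and D5, and Adamts5 only through those of D0 and D1. Leaving out any library kept the call for 6 of the 7, and Mmp14 lost it. A fit with replicate as a block, which takes out shifts shared by same-numbered libraries, called 9, all lower. It called 3629 of the 12752 genes tested.

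**Figure D1:**
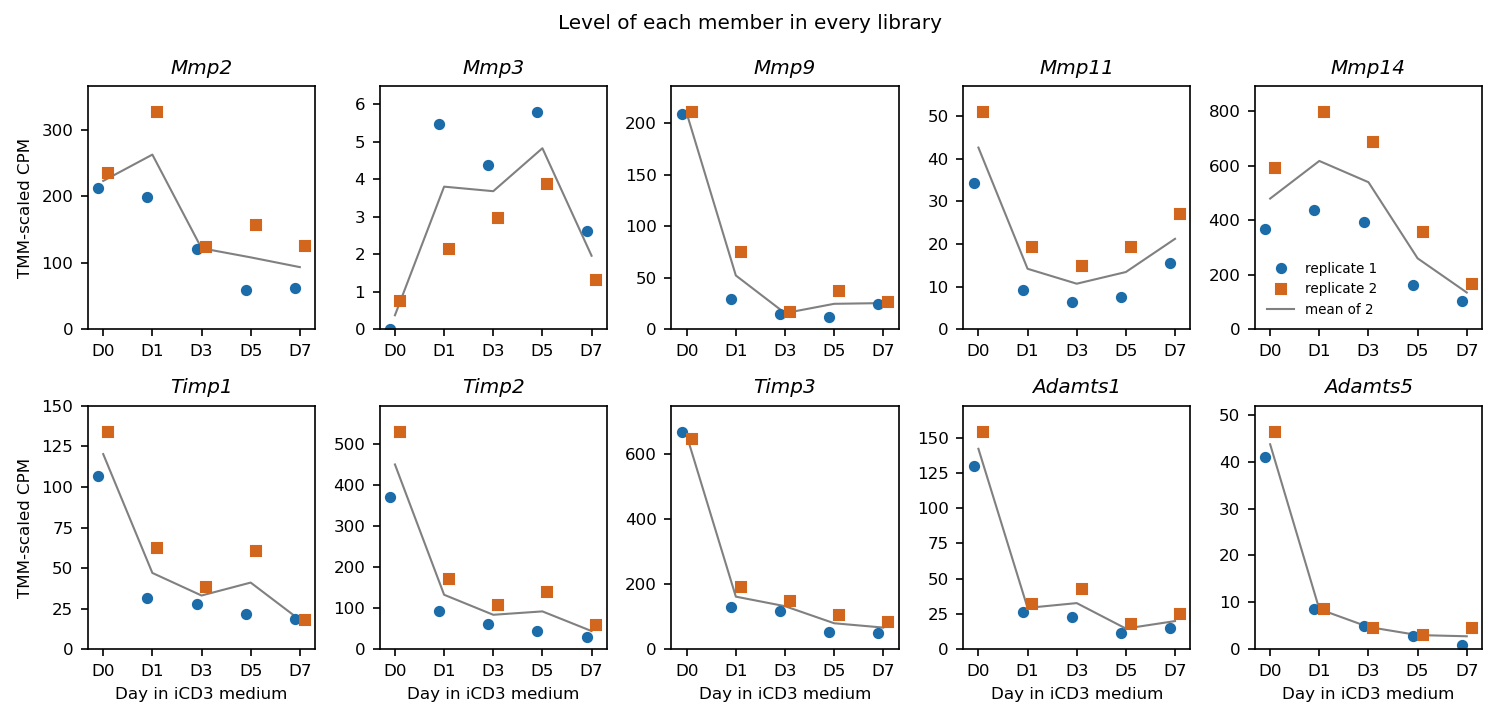
TMM-scaled CPM (y axis, linear, a scale of its own in each panel) of the 10 genes by day in iCD3 medium (x axis). Circles are replicate 1, squares replicate 2 and the line joins the means of 2 libraries. Timp3 starts at 669 and 647 CPM and ends at 49.6 and 82.8, while Mmp14 stays between 393 and 796 CPM at D1 and D3.

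The membrane protease Mmp14 (ENSMUSG00000000957, GRCm38 chromosome 14, 54431612 to 54445364, plus strand) lay at 366 CPM in D0 replicate 1 and 592 in replicate 2. It then stood at 438 and 796 CPM at D1, 393 and 685 at D3, 162 and 358 at D5, and 104 and 165 at D7. The D0, D1 and D3 libraries overlapped, and the D7 libraries lay below all of them. The change from D0 to D1 was 0.36 on the log2 scale (SE 0.47, adjusted p = 0.809 by edgeR), with within-replicate log2 ratios of 0.26 and 0.43. From D3 to D7 it fell by 2.00 on the log2 scale (SE 0.49, adjusted p = 0.0422 by edgeR). From D0 to D7 it fell by 1.84 (SE 0.49, adjusted p = 0.0245), with within-replicate ratios of -1.81 and -1.84. The last call was lost without either D0 library or either D7 library (adjusted p = 0.0503 to 0.187), and the one from D3 to D7 without any library of D0, D3 or D7 (0.0564 to 0.286). Without D1 replicate 2 the D1 value was -0.10.

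Mmp2, gelatinase A, cuts denatured and basement membrane collagen and is the substrate of Mmp14 (ENSMUSG00000031740, chromosome 8, 92827291 to 92853420, plus strand). Its libraries were at 212 and 234 CPM at D0, 199 and 327 at D1, 120.0 and 124 at D3, 59.2 and 157 at D5, and 61.3 and 126 at D7. D0 and D1 overlapped, and all libraries of D3 to D7 lay below those of D0. The D7 against D0 value was -1.27 (SE 0.47, adjusted p = 0.0896 by edgeR), which was not called. With the replicate number as a block it was -1.36 (adjusted p = 0.00616, edgeR), which was called, as it was by DESeq2 (adjusted p = 0.043). At D1 the value was 0.23 (SE 0.46, adjusted p = 0.900), and -0.14 without D1 replicate 2.

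The other gelatinase, Mmp9, is released by many cells under inflammatory signals (ENSMUSG00000017737, chromosome 2, 164940780 to 164955850, plus strand). It stood at 209 and 211 CPM at D0 and at 29.8 and 74.7 at D1. Later it was at 14.9 and 16.4 CPM at D3, 12.3 and 37.1 at D5, and 24.6 and 26.3 at D7. Every library after D0 was below both D0 libraries. Mmp9 fell by 2.03 on the log2 scale from D0 to D1 (SE 0.50, adjusted p = 0.0441, edgeR) and by 3.05 from D0 to D7 (SE 0.52, adjusted p = 0.00288). The D1 value was -2.78 without D1 replicate 2 and -1.49 without D1 replicate 1, and the call was lost without the latter, without either library of D0, D3 or D7 (adjusted p = 0.0618 to 0.297 by edgeR) and after thinning (0.0566). Since macrophages and neutrophils are known Mmp9 sources, their 14 markers were summed: 21.0 to 39.1 CPM at D0 and 8.54 to 15.2 CPM at D7. Only 2 of the 14 had enough counts to be tested, Cd68 and Lyz2, and neither was called at D7. The part of such cells in the Mmp9 level was not tested.

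Mmp11, stromelysin-3, is activated by furin-type proteases inside the cell (ENSMUSG00000000901, chromosome 10, 75923222 to 75936496, minus strand). It was at 34.2 and 50.9 CPM at D0, 9.13 and 19.2 at D1, 6.44 and 14.9 at D3, 7.49 and 19.3 at D5, and 15.4 and 26.9 at D7. The D7 libraries lay above both D3 libraries and below both D0 libraries. The log2 values were -1.63 at D1 (SE 0.58, adjusted p = 0.162) and -1.03 at D7 (SE 0.56, adjusted p = 0.245), both against D0 and neither called by edgeR. With the replicate block they were -1.66 (adjusted p = 0.00558) and -1.03 (adjusted p = 0.0244), and D7 against D3 was 1.06 (adjusted p = 0.0468), all 3 called. Exons of Mmp11 overlap those of Chchd10 on the opposite strand, which went from 20.8 ± 12.9 CPM at D0 to 262 ± 41.5 at D3 and 149 ± 66.8 at D7 (SD, n = 2). No source used here states whether counting used strand, so reads of the 2 genes may not be told apart.

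Mmp3, stromelysin-1, cuts many matrix proteins and activates other metalloproteinases (ENSMUSG00000043613, chromosome 9, 7445822 to 7455975, plus strand). It was near the detection limit, with 0 and 1 estimated counts at D0, 18 and 3 at D1, 15 and 4 at D3, 24 and 5 at D5, and 12 and 2 at D7. All libraries after D0 lay above both D0 libraries on the CPM scale, between 1.31 and 5.80 CPM. Pooled over libraries, the D1 to D0 ratio was 15.1, with an exact 95% counting interval of 2.43 to 626. The test called neither D1 (3.51, SE 1.22, adjusted p = 0.148) nor D7 (2.59, SE 1.27, adjusted p = 0.195) against D0, both on the log2 scale. These values rest on the 1 count in D0 replicate 2: without that library they were 6.36 and 5.46, and limma on log2(TPM + 1) gave 1.63 and 1.08.

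The 3 inhibitors were lower in every library after D0 than in either D0 library. Timp3 (ENSMUSG00000020044, chromosome 10, 86300372 to 86349506, plus strand) had 669 and 647 CPM at D0, 131 and 192 at D1, 116 and 148 at D3, 53.1 and 106 at D5, and 49.6 and 82.8 at D7. This was the inhibitor called both at D1, where it fell by 2.03 on the log2 scale (SE 0.39, adjusted p = 0.0148, edgeR), and at D7, where it fell by 3.33 (SE 0.41, adjusted p = 0.00056). The D1 call was lost without either D0 library or D1 replicate 1 (adjusted p = 0.0795 to 0.157). From D3 to D7 the Timp3 value was -1.01 (adjusted p = 0.150), and -1.04 with the replicate block (adjusted p = 0.0192). Its exons overlap those of Syn3 on the opposite strand, which had 0 to 9 estimated counts in a library.

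Timp2, the bridge in the activation of Mmp2 (ENSMUSG00000017466, chromosome 11, 118301069 to 118355740, minus strand), had 371 and 531 CPM at D0 and 94.0 and 172 at D1. It was at 60.3 and 107 CPM at D3, 44.2 and 140.0 at D5, and 29.6 and 58.5 at D7. The D7 libraries lay below both D3 libraries, and D5 overlapped D1, D3 and D7. Timp2 fell by 3.38 on the log2 scale from D0 to D7 (SE 0.59, adjusted p = 0.0032, edgeR). At D1 the value was -1.77 (SE 0.55, adjusted p = 0.107), and -1.82 with the replicate block (adjusted p = 0.000844), while DESeq2 gave an adjusted p of 0.0125. D7 against D3 gave -0.94 (adjusted p = 0.350), and -0.95 with the block (adjusted p = 0.0327).

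Timp1, which binds the Mmp9 precursor and blocks most soluble metalloproteinases (ENSMUSG00000001131, chromosome X, 20870166 to 20874735, plus strand), had 107 and 134 CPM at D0. It stood at 31.3 and 62.6 CPM at D1, 28.1 and 38.0 at D3, 21.7 and 60.3 at D5, and 18.3 and 17.7 at D7. The D7 replicates differed by little, while the D5 libraries spanned the values of D3. From D0 to D7 Timp1 fell by 2.73 on the log2 scale (SE 0.50, adjusted p = 0.00403, edgeR). The D1 value was -1.38 (SE 0.47, adjusted p = 0.143), and -1.44 with the replicate block (adjusted p = 0.0131). Timp1 lies within the Syn1 gene on the opposite strand and shares no exon with it.

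Adamts1 and Adamts5 cut the proteoglycans aggrecan and versican and are neighbours on chromosome 16, both on the minus strand and 53059 bases apart (ENSMUSG00000022893, 85793827 to 85803113, and ENSMUSG00000022894, 85856173 to 85901828). Adamts1 was at 130 and 154 CPM at D0, 26.5 and 32.0 at D1, 22.8 and 42.5 at D3, 11.3 and 17.8 at D5, and 14.8 and 25 at D7. It fell by 2.29 on the log2 scale at D1 (SE 0.40, adjusted p = 0.00885) and by 2.87 at D7 (SE 0.41, adjusted p = 0.0011), against D0 by edgeR. Most of the difference was thus in place after a day in the medium, with D1 and D3 overlapping. Adamts5 was at 41.1 and 46.4 CPM at D0, 8.52 and 8.54 at D1, 4.97 and 4.47 at D3, 2.90 and 3.09 at D5, and 0.87 and 4.60 at D7. The D7 libraries rested on 4 and 7 estimated counts, against 84 and 62 at D0, so the later levels were measured with little precision. Adamts5 fell by 2.35 at D1 (SE 0.55, adjusted p = 0.0364) and by 4.29 at D7 (SE 0.64, adjusted p = 0.0014). The D7 value was -3.23 without D7 replicate 1 and -5.53 without D7 replicate 2. The D1 calls were lost without either D0 library or D1 replicate 1 (adjusted p = 0.052 to 0.102 for Adamts1), and for Adamts5 also without D1 replicate 2 or either D3 library (0.0566 to 0.232).

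**Figure D2:**
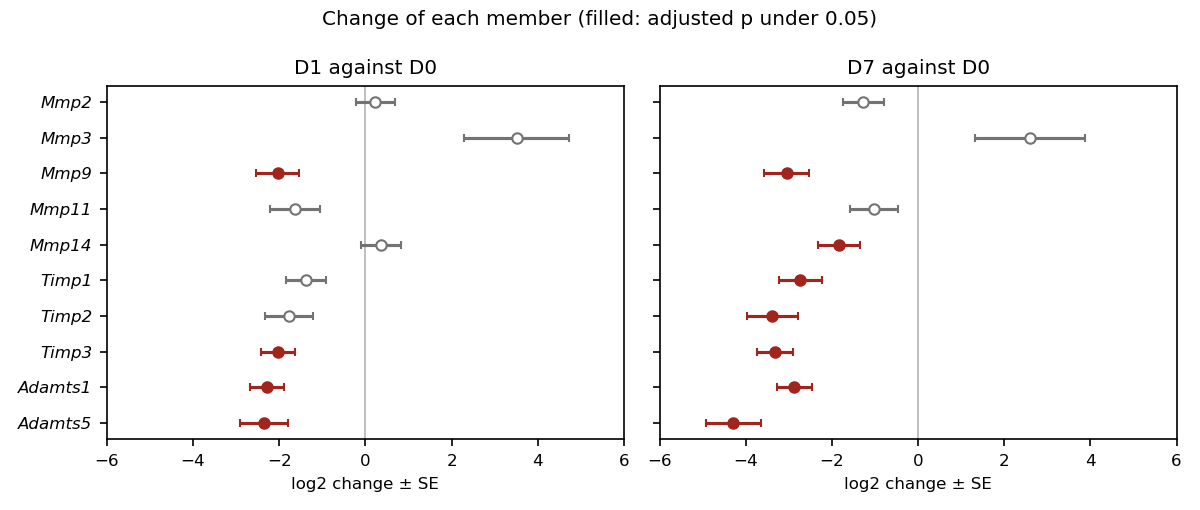
The log2 change (x axis) of the 10 genes (y axis) at D1 and at D7, each against D0, as points with the SE as bars. Filled points have an adjusted p under 0.05 by edgeR: 4 at D1, all lower, and 7 at D7, all lower, with Mmp14 at 0.36 at D1 and -1.84 at D7.

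After the first day in the medium, some of the 10 genes were called lower and others were not. At D1 against D0, 4 were called lower (Mmp9, Timp3, Adamts1 and Adamts5) and 0 higher, while 4.52% of all genes tested were called, 2.12% lower and 2.41% higher. In 7 of the 10 genes both D1 libraries lay below both D0 libraries, as in 24.5% of all genes. Mmp3 lay above, as in 24.4% of all genes, and Mmp2 and Mmp14 overlapped. The median log2 change was -1.70, against 0.01 over all genes. None of the 4 calls held without each library in turn, while the replicate block called 7, adding Mmp11, Timp1 and Timp2. Of the 12752 genes tested, the block called 1350. Differences between the changes of one gene and another were not tested.

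Between later neighbouring days no member was called by edgeR, in comparisons that called few genes at all: 0.0549% from D1 to D3, 0.0706% from D3 to D5 and 0% from D5 to D7. At an unadjusted p under 0.05, 2, 2 and 1 of the members and 1083, 1502 and 810 of all genes passed. For D7 against D5, DESeq2 called 30 genes. With the replicate block Mmp14 was called for D5 against D3, at -1.10 (adjusted p = 0.022), where the unblocked value was -1.06 (SE 0.48, adjusted p = 0.421). Over the whole late stretch, D7 against D3, 5.37% of genes were called and 2.31% lower, and Mmp14 was the member called. The block called 4 members there: Mmp14, Timp2 and Timp3 lower and Mmp11 higher. Among the 12752 genes tested it called 2351 for D7 against D3 and 421 for D5 against D3. A test for any difference between the 5 days called 7 members, against 19.1% of all genes: the same test gave adjusted p = 0.00066 for Timp3, 0.000815 for Adamts1, 0.0015 for Mmp9, 0.00153 for Adamts5, 0.00746 for Timp2, 0.0143 for Timp1 and 0.0387 for Mmp14 (edgeR). Mmp11 (0.0903), Mmp2 (0.0983) and Mmp3 (0.197) were not called. The calls of Timp1, Timp2 and Mmp14 in this test were each lost in at least 1 alternative setting. Mmp2 and Mmp11 were called in it with the replicate block.

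Levels of different genes were compared per length, in deposited TPM, which are scaled to gene length and library size. Mmp14 had the highest mean level of the 10 genes on every day, at 292, 356, 303, 133 and 81.2 TPM from D0 to D7. At D0 its 2 values overlapped those of Timp1, the next, at 253 ± 45.6 TPM (SD, n = 2), and at D7 those of Mmp2, the next, at 56.7 ± 21.6 TPM. At D1, D3 and D5 Mmp14 was apart from the gene ranked after it. The D0 order went on with Timp3 (205 ± 9.33 TPM) and Timp2 (198 ± 15.4), which overlapped, then Mmp2 (115 ± 3.08), Mmp9 (99.0 ± 1.14), Adamts1 (45.3 ± 6.92), Mmp11 (36.9 ± 4.45), Adamts5 (5.82 ± 0.347) and Mmp3 (0.325 ± 0.46). The D7 order after Mmp2 was Timp1 (38.3 ± 0.544 TPM), Timp2 (23.1 ± 6.63), Timp3 (21.2 ± 6.68), Mmp11 (18.6 ± 9.22), Mmp9 (14.2 ± 2.56), Adamts1 (6.39 ± 1.66), Mmp3 (1.77 ± 0.87) and Adamts5 (0.37 ± 0.354). In it Timp2, Timp3, Mmp11 and Mmp9 each overlapped the next of these 4. The 3 inhibitors thus ranked 2 to 4 at D0, and Mmp2 stood among or above them on the later days.

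Summed over the 5 metalloproteinases, the messages stood at 478 and 608 TPM at D0 (replicates 1 and 2) and at 417 and 670 TPM at D1. Summed over the 3 inhibitors they stood at 620 and 693 TPM at D0 and at 141 and 259 TPM at D1. The protease sum divided by the inhibitor sum was 0.771 and 0.878 at D0, 2.96 and 2.59 at D1, 2.54 and 2.96 at D3, 1.91 and 1.48 at D5, and 1.81 and 2.31 at D7. Inhibitor messages were thus the larger sum in both D0 libraries and the smaller in all 8 later ones. Mmp14 made up 46.0% to 81.7% of the protease sum. For the pair of Mmp14 and Timp2 alone, the ratio was 1.18 and 1.74 at D0, 6.76 and 6.77 at D1, 6.40 and 9.50 at D3, 5.21 and 3.01 at D5, and 3.53 and 3.51 at D7. Every later library was above both D0 libraries for both ratios, which are ratios of messages and not of proteins, and which were not tested. Mmp2 over Timp2 was also higher later, at 0.624 and 0.538 at D0 and 1.24 to 3.50 afterwards. Mmp9 over Timp1 did not rise. It was 0.452 and 0.344 at D0, 0.141 to 0.265 from D1 to D5, and 0.319 and 0.421 at D7. Adamts1 over Timp3 was 0.191 and 0.253 at D0 and 0.162 to 0.376 later. These pair ratios were not tested either.

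**Figure D3:**
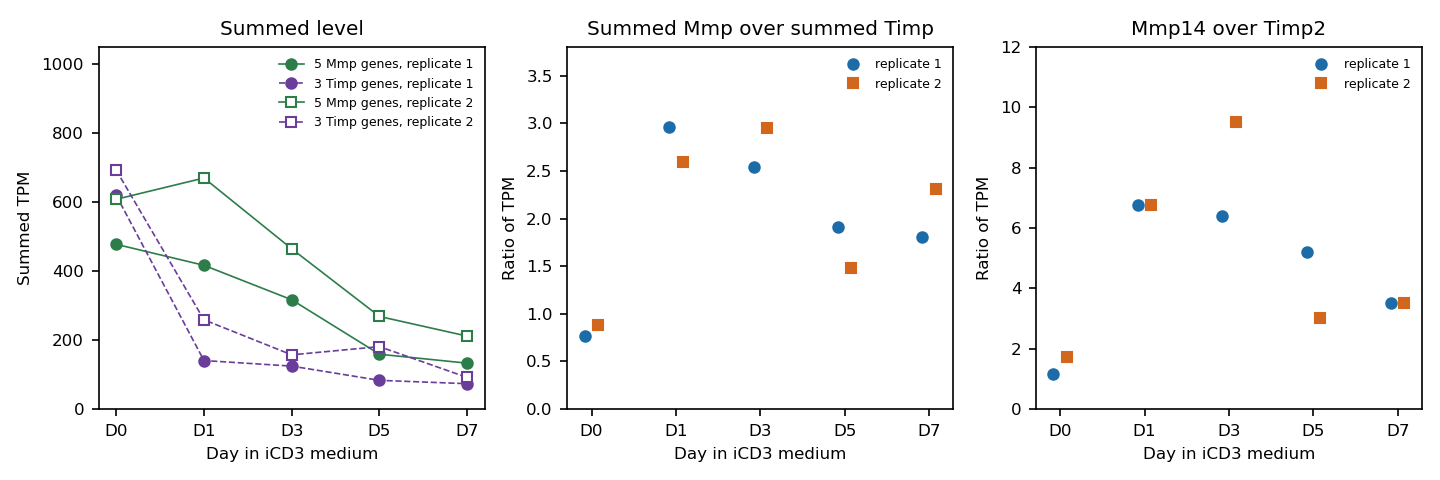
Left, summed TPM of 5 metalloproteinase and 3 TIMP genes in each library by day. Middle and right, the ratio of these sums and the ratio of Mmp14 to Timp2, with circles for replicate 1 and squares for replicate 2. The ratio of sums lies at 0.771 and 0.878 at D0 and between 1.48 and 2.96 in the 8 later libraries.

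Of the 10 genes, 6 were higher in replicate 2 than in replicate 1 on all 5 days (Mmp2, Mmp9, Mmp11, Mmp14, Timp2 and Adamts1). The share of all genes with such an offset was not computed, so the count cannot be read as particular to these genes. Over all genes tested, deviations of same-numbered libraries correlated for every pair of days (r 0.273 to 0.436). Replicate 2 was also the shallower and had the longer inferred fragments, and the part of either in these offsets was not tested. The gene with the most similar profile over the 10 libraries was taken for each of the 7 called genes, by Pearson's r of log2 CPM, as a description. It was Vim for Timp1 (r = 0.985), Csrp1 for Timp2 (0.986), Parva for Timp3 (0.995), Fgf7 for Mmp9 (0.992) and Midn for Mmp14 (0.993). For Adamts1 it was Rdh10 (0.993) and for Adamts5 it was Col5a2 (0.987). The points share days and replicate libraries.

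Other genes of the system were followed by list from D0 to D7. Of 18 other metalloproteinases 6 had enough counts, and 1 was called lower, Mmp23 (-2.93, SE 0.83, adjusted p = 0.0317), and 1 higher, Mmp10. Mmp10, a stromelysin, had no count at D0 and reached 2.40 ± 0.606 CPM at D7 (SD, n = 2), at least 2.94-fold higher when D0 is given a floor of 3 counts over its 2 libraries. With the replicate block 2 were called lower and 2 higher. The median of the 6 was -0.40, and Mmp7, Mmp8, Mmp20, Mmp21 and Mmp27 had no count in any library. Of 17 other ADAMTS proteases 11 were tested and 4 were called lower, 0 higher, with a median of -1.53 (6 and 1 with the replicate block). Adamts2, which trims procollagen, fell by 3.39 (SE 0.60, adjusted p = 0.00332), Adamts12 by 2.92 (adjusted p = 0.0486) and Adamts7 by 1.95 (adjusted p = 0.00967). All 10 genes listed from the ADAM family, whose proteins are membrane-bound, were tested. Of them 4 were called lower and 0 higher, with a median of -1.22 (5 and 1 with the replicate block). The gene called higher with the block was Adam23. Adam8 fell by 4.18, Adam12 by 3.12 and Adam19 by 1.72 on the log2 scale, while Adam17, the main sheddase of the family, was at -0.02 (adjusted p = 0.973, edgeR).

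Of the remaining inhibitors, A2m, a protease trap, rose from 0.489 ± 0.692 to 23.3 ± 0.576 CPM (SD, n = 2; 5.20 on the log2 scale, adjusted p = 0.000965 by edgeR). Its pooled D7 to D0 ratio was 38.9, with a 95% counting interval of 10.6 to 325. A2m passed the filter on low counts only through later libraries, as did Papln and Mmp10, which had no count at D0. Reck, a membrane-anchored inhibitor, was at -0.97 (adjusted p = 0.355). Among ADAMTS-like proteins, which lack the protease domain, 4 of 6 were tested: Adamtsl1 (-4.62), Adamtsl5 (-4.49) and Adamtsl3 were called lower. Papln was called higher, from no count at D0 to 7.31 ± 0.807 CPM at D7, at least 7.92-fold. Their median was -3.92.

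The plasminogen system and the other activators had 12 of 16 genes tested, with 6 called lower, 3 higher and a median of -1.72 (9 and 3 with the replicate block). Tll1, a relative of the procollagen protease Bmp1, fell by 4.35 on the log2 scale (SE 0.79, adjusted p = 0.00386, edgeR), and Plaur, the urokinase receptor, fell by 3.96 (SE 1.07, adjusted p = 0.0269). The 3 called higher, named after their values were seen, were the membrane serine proteases St14 (2.99) and Hpn (3.86) and the convertase Pcsk6 (1.47). At D0 St14 and Hpn were at 3.32 ± 1.53 and 0.748 ± 1.06 CPM (SD, n = 2). Both passed the filter on low counts only through later libraries. Furin, which activates Mmp11 and Mmp14, was at -1.64 (SE 0.60, adjusted p = 0.0861), and was called with the replicate block (adjusted p = 0.000295). Of 11 docking, uptake and inducer genes 7 were called lower and 0 higher (median -1.90): Thbs1 fell by 6.05, Cd44, which anchors Mmp9 and Mmp14 at the cell surface, by 4.50, and Itgb3 by 2.85. Bsg, an inducer of metalloproteinases, was at 0.30 (adjusted p = 0.498).

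Substrates had 19 of 20 genes tested, with 13 called lower, 1 higher and a median of -2.06 (14 and 1 with the replicate block). Eln fell by 5.0 on the log2 scale (SE 0.67, adjusted p = 0.000732, edgeR), while Tnc was at -4.95 and Col1a1 at -4.82, both called, the last from 4732 ± 1129 to 168 ± 84.8 CPM (SD, n = 2). The 1 called higher, named after its value was seen, was the epithelial adhesion protein Cdh1 (3.53). At D1 against D0, 7 substrates were already called lower and 1 higher (9 and 1 with the block). Of 7 AP-1 genes 6 were tested and 3 were called lower, 0 higher, with a median of -2.13 (5 lower with the replicate block). Fosl1 fell by 4.07, Junb by 3.60 and Fosl2 by 2.57. Fos (-1.69, adjusted p = 0.116) and Jun (-1.52, adjusted p = 0.0715) were called with the replicate block. Jdp2, whose viral and own messages are not told apart, was at 756 ± 276 CPM at D0, 1228 ± 652 at D1 and 255 ± 116 at D7 (SD, n = 2).

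These lists held 48 calls in all for D7 against D0, of which 19 held without each library in turn. Among the genes named, A2m, Adamtsl1, Adamtsl5, Adam12, St14, Thbs1, Cd44, Eln, Tnc, Col1a1 and Cdh1 kept their calls, and the others lost theirs without at least 1 library of D0 or D7. Outside those days, Adamts12 and Hpn lost theirs without either D3 library, Pcsk6 without D3 replicate 2, Hpn without D1 replicate 1 and Adamtsl3 without either D1 library. Without D7 replicate 1, Adamts2 was at -2.70, Adam12 at -2.47, Plaur at -4.67 and Eln at -4.37. Without D7 replicate 2, Adam12 was at -3.78, Eln at -5.62, Thbs1 at -6.69 and Junb at -4.25. Leaving out D0 replicate 1 gave 8.86 for A2m, 3.65 for St14 and 2.71 for Hpn, and leaving out D0 replicate 2 gave 4.54 for A2m, 7.65 for Hpn, 2.10 for Pcsk6 and -3.12 for Plaur. Mmp10 lost its call without any of the libraries of D0, D1, D3 or D7 (adjusted p up to 0.191) and with DESeq2 (0.0662). Other settings ended the calls of Adamtsl3 (0.0732 with DESeq2, 0.131 with limma on TPM and 0.0666 after thinning), Adamts12 (0.0504 with RLE and 0.0564 with upper-quartile scaling), Adamts7 (0.0684 with limma on TPM), Hpn (0.0572 after thinning) and Pcsk6 (0.0706 with DESeq2, 0.222 with limma on TPM and 0.0603 after thinning).

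**Figure D4:**
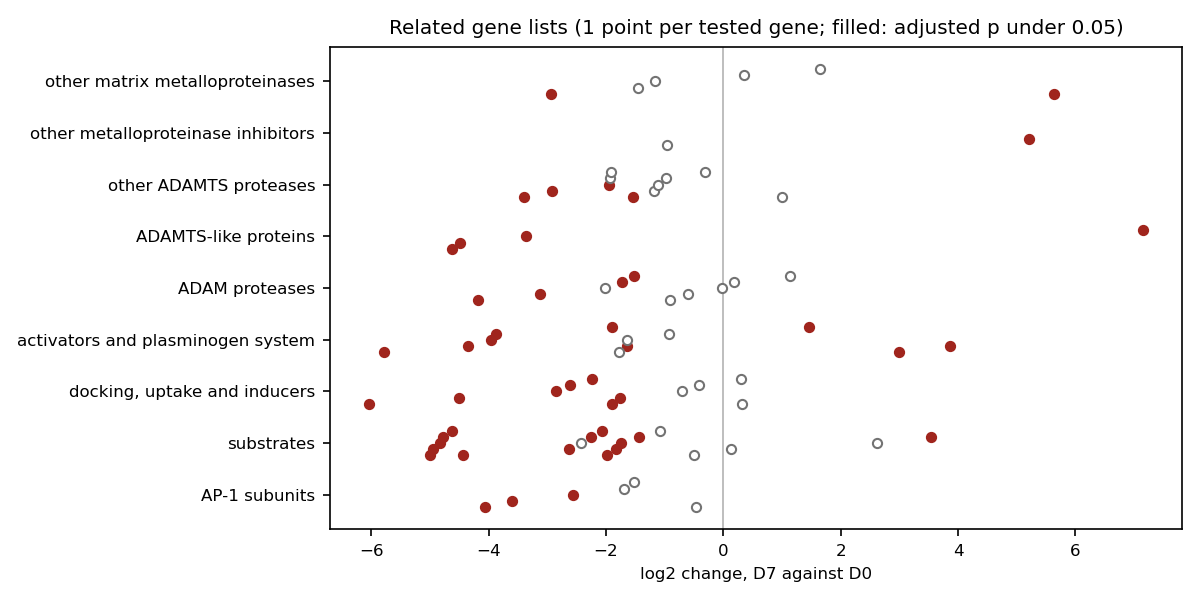
The log2 change from D0 to D7 (x axis) of each tested gene in 9 lists (y axis), filled where edgeR's adjusted p is under 0.05. Substrates hold 13 genes called lower and 1 higher, and docking, uptake and inducer genes hold 7 lower and 0 higher. The 2 points farthest right, Papln and Mmp10, had no count at D0, so their fitted values are no measure of size.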

How the data were processed

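The submitters' processing notes name bcl2fastq, Bowtie2, RSEM and the build mm10, with versions, annotation and strand setting not given in the sources used here. Labels list 2 library kits for every library without saying which was used. The deposited expected counts (estimated by RSEM, not normalised) were the main unit. The deposited TPM values, scaled by the authors' RSEM run to gene length and library total, served for levels between genes and for an alternative. FPKM was not used.

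Gene names and coordinates came from GENCODE M21 on GRCm38, and 54723 of 54752 identifiers matched. Expected counts were rounded and tested with edgeR 4.0.16 (limma 3.58.1, R 4.3.3): filter with a minimum count of 10, TMM scaling, 1 term per day over all 10 libraries, Benjamini-Hochberg adjustment over 12752 genes and calls at 0.05. An SE is the absolute log2 change over the square root of F. CPM values are TMM-scaled. The script was tested on simulated data. Both libraries of each day differed beyond counting noise (chi-square per gene 7.16 to 20.8). Deviations of same-numbered libraries from their day means correlated for every pair of days (r 0.273 to 0.436 over genes), so the numbers were taken to pair the libraries, and blocked values stand beside members and lists whose calls they change. Alternatives were RLE and upper-quartile scaling, no filter, DESeq2 1.42.0, limma on log2(TPM + 1), thinning to the shallowest library, a fit of only the 2 days compared, the replicate block and leaving out each library.

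Members and gene lists were chosen with earlier results of these data known. Named genes were the 10 members, the most similar gene of each called member and, from each list, the called genes with the 3 largest changes from D0 to D7, plus genes named after their values were seen, such as Adam17, Reck, Furin, Bsg, Fos and Jun. Protein sequences and the promoters of Mmp2, Mmp9 and Adamts5 were not used here. A gene that the naming rule would also have picked is not reported here.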

Additional observations from a re-analysis of the deposited data

How the results depend on the processing

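Under RLE scaling, upper-quartile scaling and limma on log2(TPM + 1), every change of a member from D0 to D1, D0 to D7 and D3 to D7 kept its direction and its side of the threshold. Upper-quartile scaling moved the median over all genes for D7 against D0 from 0.06 to 0.19. Thinning ended the call of Mmp9 at D1 (adjusted p = 0.0566) and left Mmp3 untested. Changes reversed in 3 cases: Mmp2 at D1 (-0.14) and Mmp14 at D1 (-0.10), both without D1 replicate 2, and Mmp2 for D7 against D3 (0.047) without D7 replicate 1. Over all libraries left out, these 3 values ran from -0.14 to 0.55, -0.10 to 0.76 and -0.99 to 0.047. With the replicate block, which the pairing check favoured, members called were 7 for D1 against D0, 1 from D3 to D5 and 4 from D3 to D7. Genes called with the block were 3629 (D7 against D0), 1350 (D1 against D0), 206 (D1 to D3), 421 (D3 to D5), 20 (D5 to D7), 2351 (D3 to D7) and 4455 (any difference). Without the filter, 7 members were called for D1 against D0 and 1 for D3 against D1, and the genes called were, in that order from D1 against D0 on, 1064, 272, 452, 176, 1664 and 4139. DESeq2 called 128 genes from D1 to D3, 151 from D3 to D5 and 30 from D5 to D7. Limma on log2(TPM + 1) called 17 from D3 to D5, 1 from D5 to D7 and 435 from D3 to D7. Fits of only the 2 days called 12 for D3 against D1 and 1309 for D7 against D3, and upper-quartile scaling called 15 for D3 against D1. The cause of these shifts was not tested. Leaving out each library gave 6 to 8 members called for D7 against D0, 0 to 6 for D1 against D0, 0 to 1 for D7 against D3 and 4 to 9 for any difference. The genes called then ran from 839 to 2988 (D7 against D0), 121 to 911 (D1 against D0), 0 to 45 (D1 to D3), 0 to 288 (D3 to D5), 0 to 227 (D5 to D7), 5 to 1532 (D3 to D7) and 1235 to 3514 (any difference). Where a day then has 1 library, that library is assumed to vary like those of the other days. Ratios of Mmp14 to Timp2 with CPM over effective length in place of TPM (3.52 at D7 with both) are the same by construction and show nothing on stability. Depth limits Mmp3 and Adamts5 most, since 3 counts stand for up to 2.26 CPM.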

Other observations

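The values of genes that lie near each other can be set side by side. Mmp3 and Mmp10, which is not among the 10 members, lie 46376 bases apart on chromosome 9. At D0 Mmp3 had 0 and 1 estimated counts and Mmp10 had none, and at D7 the 2 genes were at 1.96 ± 0.917 and 2.40 ± 0.606 CPM (SD, n = 2). Adamts1 and Adamts5 on chromosome 16 were both called lower at D1, where they stood at 29.2 ± 3.92 and 8.53 ± 0.0121 CPM. Between D1 and D7, Adamts1 went to 19.9 ± 7.20 CPM and Adamts5 to 2.74 ± 2.64 CPM.

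Some genes used as markers of other cell types were called higher at D7 than at D0. Of 8 endothelial markers 7 were tested and 6 were called higher, with summed levels of 25.9 to 31.4 CPM at D0 and 163 to 190 CPM at D7. The highest of those tested at D7 was Pecam1, which went from 0.619 ± 0.183 to 68.0 ± 1.37 CPM (SD, n = 2). Of 8 extraembryonic endoderm markers 6 were tested and 4 were called higher, with 105 to 152 CPM at D0 and 327 to 605 CPM at D7. Most of that sum at D7 was Lama1, which went from 5.58 ± 3.75 to 312 ± 157 CPM (SD, n = 2), while Dab2 was at 101 ± 26.0 and 71.4 ± 24.8 CPM and was not called. Trophoblast markers had 3 of 10 tested and 2 called higher, and Tpbpa and Prl3d1 had no count in any library. The 2 called were Tfap2c, at 40.3 ± 5.82 CPM at D7, and Cdx2, at 6.88 ± 1.42. Tie1 and Cldn5 of the endothelial list and Sox17 of the endoderm list had no count at D0. Pecam1, Cdh5, Tek, Foxa2, Cdx2 and Tfap2c averaged 0.245 to 1.48 CPM at D0. All these genes passed the filter on low counts only through later libraries, which left little room for a call lower. Kdr, Gata6 and Eomes of these lists were tested and not called. Whether such cells were present, and what part they had in the members' values, was not tested.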
